A study of Mus musculus with 7 samples.

Results

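Kit ligand (Kitl, also called stem cell factor) and its receptor Kit were followed through 7 RNA-seq libraries of mouse hippocampus. These are 2 of the 55416 gene identifiers counted, and both were among the 13152 genes that passed the filter on low counts. The pair was chosen by the Kitl levels, which were high in both ONX-0914 libraries, so the Kitl values of these libraries against the other groups are given as a description, without a test. Kit was taken as the receptor of Kitl, and its own values did not enter the choice.

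The libraries came from male, age-matched mice of the outbred CD1 stock. Control mice were untreated (3 libraries, replicates 1 to 3), DMSO-treated mice received the vehicle (2 libraries, replicates 2 and 3), and ONX-0914-treated mice received this inhibitor of the immunoproteasome at 10 mg/kg by intraperitoneal injection 2 times per week over 2 months (2 libraries, replicates 1 and 2). The authors made directional libraries from total RNA, read 100 bp from one end and deposited whole-number read counts per gene. The comparisons address which transcripts differed after chronic inhibition, with DMSO as the control for the vehicle and the injections.

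Kit is a receptor tyrosine kinase of class III, the family that also holds the receptors for CSF1, FLT3 ligand and PDGF. Its ligand is made as a membrane-bound and as a soluble form, which arise by splicing and by cleavage at the cell surface, and ligand dimers bring receptor molecules together so that they phosphorylate each other and signal through PI3-kinase, the Ras and ERK cascade and Src family kinases. The pair is known from blood stem cells, mast cells, melanocytes and germ cells, and both genes are also used by neurons of the brain.

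Kitl (ENSMUSG00000019966) is annotated on the plus strand of chromosome 10 with 6 transcripts, of which 4 are protein-coding, and with 5911 bp of exon sequence. Kit (ENSMUSG00000005672) is annotated on the plus strand of chromosome 5 with 8 transcripts, of which 2 are protein-coding, and with 8911 bp of exon sequence. No other annotated gene overlaps either of them. The counts are per gene, so the transcripts for the membrane-bound and the soluble ligand are summed. The 250 bases before the start site of each gene are shown because RNA of the ligand, and not of the receptor, was high after ONX-0914 (values below). The sequences are from RefSeq on GRCm38.p6, plus strand, and capitals mark matches on either strand to the letters of the TATA box (TATAAA), of the GC box (GGGCGG) and of the CCAAT box.
Kitl, chr10:100015571-100015820: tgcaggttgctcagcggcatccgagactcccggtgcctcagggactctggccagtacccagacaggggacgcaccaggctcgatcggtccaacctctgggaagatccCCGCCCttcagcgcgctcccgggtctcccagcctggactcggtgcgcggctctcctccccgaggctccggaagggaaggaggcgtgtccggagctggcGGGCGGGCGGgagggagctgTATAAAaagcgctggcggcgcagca
Kit, chr5:75574737-75574986: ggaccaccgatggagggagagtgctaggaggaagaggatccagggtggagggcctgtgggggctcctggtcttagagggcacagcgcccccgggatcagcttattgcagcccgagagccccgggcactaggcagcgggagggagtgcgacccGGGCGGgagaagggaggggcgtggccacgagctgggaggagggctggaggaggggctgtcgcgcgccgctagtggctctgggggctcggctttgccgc

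The Kitl promoter holds 1 match to the TATA box letters, 25 bases before the start site, while the Kit promoter holds none. Kitl has 3 matches to the GC box letters, 1 of them on the minus strand, and the other 2 overlap each other. Kit has 1 such match, and neither promoter has a CCAAT box. Over windows of 300 bases, which add the 50 bases after the start site, the TATA box letters occur in 13.6%, those of the GC box in 35.7% and those of the CCAAT box in 37.4% of the 32851 mouse promoters of the same table. Both windows are rich in G and C, with 68.7% for Kitl and 69.0% for Kit against a median of 52.7%. RefSeq lists 1 promoter for Kitl and 2 for Kit, of which the first is shown. These matches describe the letters and no binding was measured.

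The ONX-0914 libraries differed from each other in ways that bear on the values that follow. The library of replicate 2 was deeper, with 13782270 counts against 2842675 to 3877006 in the other 6, and mitochondrial genes took 3.71% of its counts against 0.818% to 1.59%. In replicate 1, the hippocampal marker lists were low and markers of neighbouring regions were high. There, all 10 thalamus and all 10 striatum markers lay above every control library, with summed levels of 1480 and 1390 CPM against 201 to 227 and 243 to 274 CPM in the controls. In replicate 2 the sums were 199 and 211 CPM, with 4 thalamus and 3 striatum markers above every control library and 6 and 2 below. All 8 dentate gyrus markers of replicate 1 lay below every control library, with a sum of 186 CPM against 541 to 700, and in replicate 2 the sum was 560 CPM with 5 of the 8 below every control library. The 6 CA1 and 7 CA3 markers summed to 207 and 137 CPM in replicate 1 and 680 and 247 CPM in replicate 2, against 572 to 645 and 266 to 284 CPM in the controls. Markers of choroid plexus summed to 62.9 and 186 CPM in replicates 1 and 2 (40.2 to 186 CPM in the controls) and those of oligodendrocyte precursors to 302 and 242 CPM (199 to 243 CPM in the controls). Therefore, each result is given for both ONX-0914 libraries separately.

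Kitl RNA was scarce in the hippocampus of control mice and several times more abundant in both ONX-0914 libraries. Levels are in CPM, counts scaled to the size of each library with TMM factors. In control replicates 1, 2 and 3, Kitl had 21, 30 and 29 counts, or 7.49, 8.18 and 7.99 CPM. The DMSO libraries (replicates 2 and 3) held 55 and 32 Kitl counts, or 14.8 and 11.4 CPM. With ONX-0914, replicates 1 and 2 had 340 and 647 counts, or 85.6 and 42.8 CPM. Both DMSO libraries and both ONX-0914 libraries lay above all controls. The place of ONX-0914 follows from how Kitl was chosen. Of all genes tested, 16.9% had both ONX-0914 libraries above all controls, and 15.7% had both DMSO libraries above them. The exact Poisson 95% intervals were 76.7 to 95.2 and 39.5 to 46.2 CPM in the ONX-0914 libraries and reached at most 19.2 CPM in the others. These intervals cover counting error only.

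**Figure D1:**
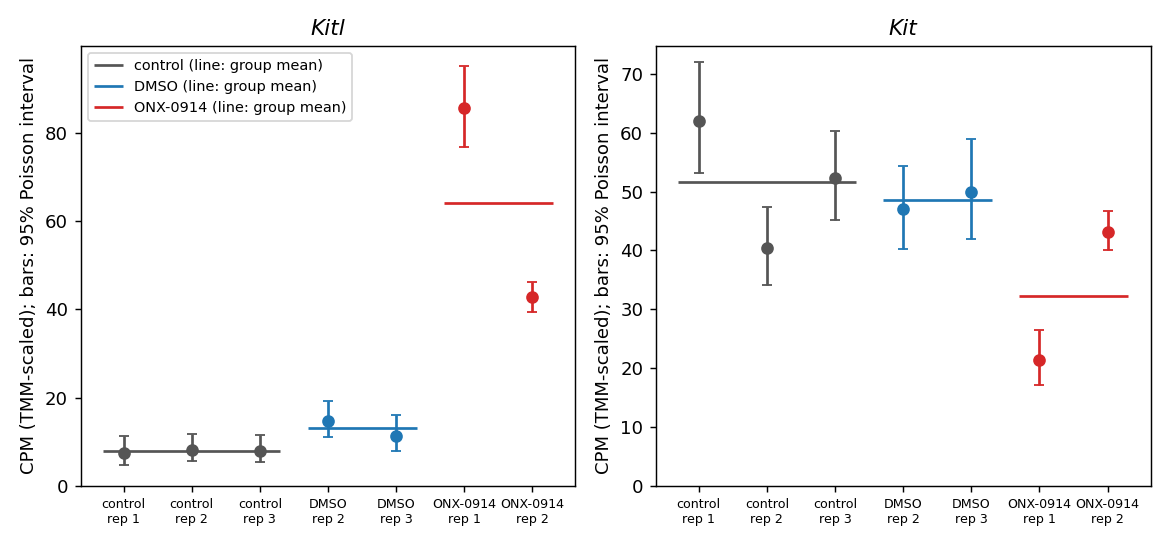
Levels of Kitl (left) and Kit (right) in CPM in each of the 7 libraries, with 95% Poisson intervals as bars and group means as lines. Both ONX-0914 libraries, at 85.6 and 42.8 CPM, lie above all others for Kitl, and the Kit level of ONX-0914 replicate 2, at 43.2 CPM, lies within the range of the controls.

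The mean Kitl level was 7.88 ± 0.357 CPM in control (SD, n = 3), 13.1 ± 2.36 CPM in DMSO (SD, n = 2) and 64.2 ± 30.3 CPM in ONX-0914 libraries (SD, n = 2). The ratio of the means was 8.14 for ONX-0914 against control and 4.90 for ONX-0914 against DMSO. Replicate 1 stood 10.9-fold and replicate 2 5.42-fold above the control mean, and the lower of them stood 2.90-fold above the highest library without the inhibitor. The ONX-0914 libraries differed from each other 2.00-fold, more than their counting error. The Log2FC of the edgeR model was 3.0 against control, the 23rd highest of the 13152 genes, and 2.27 against DMSO, where it was the 86th highest. Without ONX-0914 replicate 1 the Log2FC against control was 2.42, and without replicate 2 it was 3.43. Against DMSO it was 1.68 without ONX-0914 replicate 1. These values were used to choose Kitl, and nothing is read from their size or rank.

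The thalamus and striatum markers moved with Kitl in only one of these libraries. In replicate 2 their sums lay below the lowest control library, while Kitl was still at 42.8 CPM. All 8 endothelial markers lay above every control library in each ONX-0914 library, where 16.9% of all genes tested had both ONX-0914 libraries above the controls. Their summed level was 313 and 310 CPM in ONX-0914 replicates 1 and 2, where Kitl had 85.6 and 42.8 CPM. In DMSO replicates 2 and 3 it was 179 and 228 CPM, where Kitl had 14.8 and 11.4 CPM. The control libraries had 174 to 186 CPM, and the ratio of the ONX-0914 to the control mean was 1.71. The part of these marker lists in the Kitl level was not tested. In bulk RNA, a change in the number of cells of a type and in the RNA per cell cannot be told apart.

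Against control, DMSO alone went with slightly higher Kitl in these counts, but the difference did not pass the test. Both DMSO libraries lay above all 3 controls, as did 15.7% of all genes tested. The ratio of the means was 1.66 and the Log2FC was 0.74 (SE 0.35). The unadjusted p was 0.0677 and the FDR was 1, by the edgeR quasi-likelihood test with Benjamini–Hochberg adjustment. The control libraries of this comparison were also part of what chose Kitl. The sources used here do not say which animal gave which library, and p-values measure the spread between these libraries.

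Kit RNA was more abundant than that of its ligand in untreated hippocampus, and no comparison of Kit passed the FDR threshold of 0.05. In control replicates 1, 2 and 3, Kit had 174, 148 and 190 counts, or 62.0, 40.4 and 52.3 CPM. In DMSO replicates 2 and 3 it had 175 and 140 counts, or 47.0 and 50 CPM. In ONX-0914 replicates 1 and 2 it had 85 and 654 counts, or 21.4 and 43.2 CPM, with Poisson 95% intervals of 17.1 to 26.5 and 40.0 to 46.7 CPM. Replicate 1 was thus the lowest of all libraries, whereas replicate 2 lay above control replicate 2. The DMSO libraries lay inside the range of the controls.

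The mean Kit level was 51.6 ± 10.9 CPM in control (SD, n = 3), 48.5 ± 2.14 CPM in DMSO (SD, n = 2) and 32.3 ± 15.4 CPM in ONX-0914 libraries (SD, n = 2). The Log2FC of ONX-0914 against control was -0.65 (SE 0.31), with an unadjusted p of 0.0692 and an FDR of 0.298 by the edgeR test. Of all genes, 0.114% passed the FDR threshold and 18.6% had an unadjusted p under 0.05 in this comparison. Against DMSO the Log2FC was -0.56 (SE 0.336), with an unadjusted p of 0.134 and an FDR of 0.437, and 0.0456% of all genes were called. Both ONX-0914 libraries lay below both DMSO libraries, as for 19.7% of all genes. DMSO against control gave -0.09 (SE 0.31), with an unadjusted p of 0.785 and an FDR of 1, and 0.0152% of all genes were called. The neighbours in the order of the mean Kit levels therefore did not differ beyond their spread by this test. The limma voom 95% interval of the Log2FC reached from -1.38 to 0.06 for ONX-0914 against control and from -0.79 to 0.67 for DMSO against control, which leaves room for a difference in either direction. For ONX-0914 against DMSO it reached from -1.39 to 0.19.

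The Kit estimate rested on ONX-0914 replicate 1. Without ONX-0914 replicate 2, the Log2FC against control was -1.26 with an edgeR FDR of 0.000281, and against DMSO it was -1.18 with an FDR of 0.00111, but 2594 (19%) and 2324 (17%) of all genes were then called. Without ONX-0914 replicate 1, it was -0.25 and -0.17, and 7023 (51.2%) and 6313 (46%) genes were called. A lone library is assumed in these fits to vary like the other groups. The low Kit value occurred in the library with low hippocampal and high thalamus and striatum markers. The 12 GABAergic interneuron markers, of which Kit is not one here, summed to 1640 CPM in that library and 1050 CPM in replicate 2, against 1070 to 1110 CPM in the controls, with 4 of them above and 4 below every control library in replicate 1 and 6 above and 5 below in replicate 2. The part of these markers in the Kit level was not tested.

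**Figure D2:**
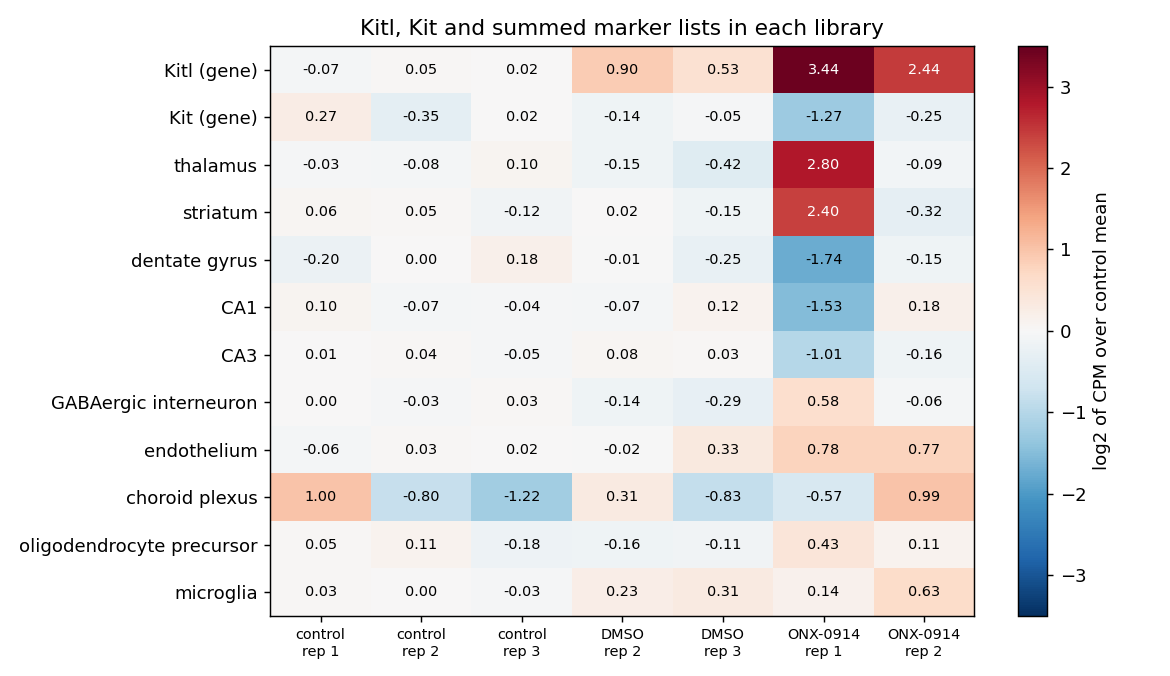
Log2 of the CPM of Kitl, of Kit and of 10 summed marker lists in each library over the control mean, with red for above and blue for below. ONX-0914 replicate 1 shows 2.8 for thalamus and -1.74 for dentate gyrus markers beside 3.44 for Kitl and -1.27 for Kit, while replicate 2 shows -0.09 and -0.15 beside 2.44 and -0.25.

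Markers of mast cells, which depend on Kit, were at or near 0 in these libraries. Of 9 mast cell markers, 8 had at most 3 counts in every library and 4 (Tpsab1, Fcer1a, Ms4a2 and Mrgprb2) had none in any library. The exception was Hdc, the histidine decarboxylase gene. The sum over the list was 1.10 to 2.18 CPM in control, 2.15 to 2.86 CPM in DMSO and 1.76 and 1.98 CPM in ONX-0914 libraries. None of the 9 passed the filter, and no difference could be tested at this depth.

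Ligand and receptor can be set against each other per length. In CPM per kb of exon, the control mean was 1.33 for Kitl and 5.79 for Kit, the DMSO mean was 2.21 and 5.44, and the ONX-0914 mean was 10.9 and 3.63. The ratio of Kitl to Kit counts per exon length does not depend on how the libraries are scaled. It was 0.182, 0.306 and 0.230 in control replicates 1, 2 and 3 and 0.474 and 0.345 in the DMSO libraries. With ONX-0914 it was 6.03 in replicate 1 and 1.49 in replicate 2. Thus the receptor exceeded the ligand in all 5 libraries without the inhibitor, and the ligand exceeded the receptor in both ONX-0914 libraries. As the Kitl counts chose the pair, this ratio is also a description.

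**Figure D3:**
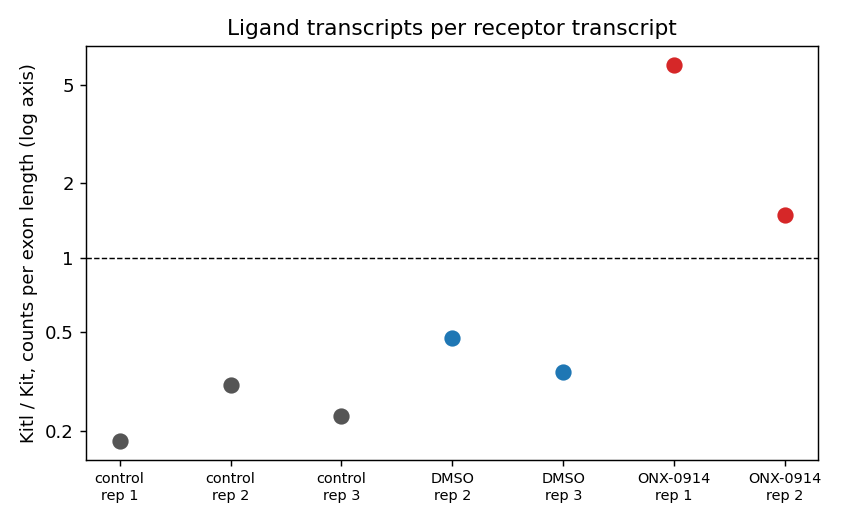
Ratio of Kitl to Kit counts per exon length in each library, on a log axis with a dashed line at equal levels. The control and DMSO libraries lie between 0.182 and 0.474, and the ONX-0914 libraries lie at 6.03 and 1.49.

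The other class III receptors and their ligands showed no change that passed the test. Of 11 such genes, 10 were tested (Flt3l, at 0 to 0.818 CPM, was not), and 0 passed the FDR threshold in any of the 3 comparisons by edgeR. An unadjusted p under 0.05 was reached by 1 gene for ONX-0914 against control, 1 for DMSO against control and 2 for ONX-0914 against DMSO, beside 18.6%, 2.65% and 14.7% of all genes. DESeq2 and limma voom called 0 of them for ONX-0914 against control. Between ONX-0914 and control, the Log2FC ranged from -0.40 to 0.78 with a median of 0.38, beside a median of 0.05 for all genes tested. Leaving out ONX-0914 replicate 1 or 2 gave 2 or 1 calls (20% or 10% of the list), where 51.2% or 19% of all genes were called.

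Csf1r, the CSF1 receptor of microglia, had 46.7, 50.7 and 53.1 CPM in control, 61.2 and 71.8 CPM in DMSO and 50.1 and 117 CPM in ONX-0914 libraries. Its Log2FC for ONX-0914 against control was 0.74 with the lowest FDR of these genes, 0.256 by edgeR, and the high value lay in replicate 2 alone. The summed microglial markers, which include Csf1r, were 259 and 363 CPM in ONX-0914 replicates 1 and 2, against 230 to 240 CPM in the controls and 276 to 292 CPM in the DMSO libraries. Of its ligands, Csf1 had a Log2FC of -0.40 (edgeR FDR 0.338), with 16.1 and 21.5 CPM in the ONX-0914 libraries against 23.7 to 28.2 CPM in the controls. Il34, the other ligand, had 0.40 (edgeR FDR 0.418), with 18.4 and 30.6 CPM against 16.5 to 21.0 CPM. Hence only Csf1 had both ONX-0914 libraries on one side of all controls here, as for 16.3% of all genes in that direction.

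Among the PDGF genes, Pdgfd, a PDGF ligand, had 3.57, 3.0 and 2.75 CPM in control, 1.34 and 2.50 CPM in DMSO and 5.03 and 5.48 CPM in ONX-0914 libraries. Both ONX-0914 libraries thus lay above all controls, as for 16.9% of all genes tested. At low counts, the Log2FC was 0.78 against control (edgeR FDR 0.291) and 1.5 against DMSO (edgeR FDR 0.230). Pdgfa, Pdgfb and Pdgfc had Log2FC values of 0.37, -0.23 and 0.49 against control. The receptors had -0.18 (Pdgfra, which marks oligodendrocyte precursors) and -0.06 (Pdgfrb, which marks pericytes), the latter with a positive sign of 0.08 when libraries were scaled by total counts. Flt3, the FLT3 ligand receptor, lay at 4.63 to 8.26 CPM in control and at 14.1 and 7.27 CPM in ONX-0914 libraries, with a Log2FC of 0.60 (edgeR FDR 0.411).

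**Figure D4:**
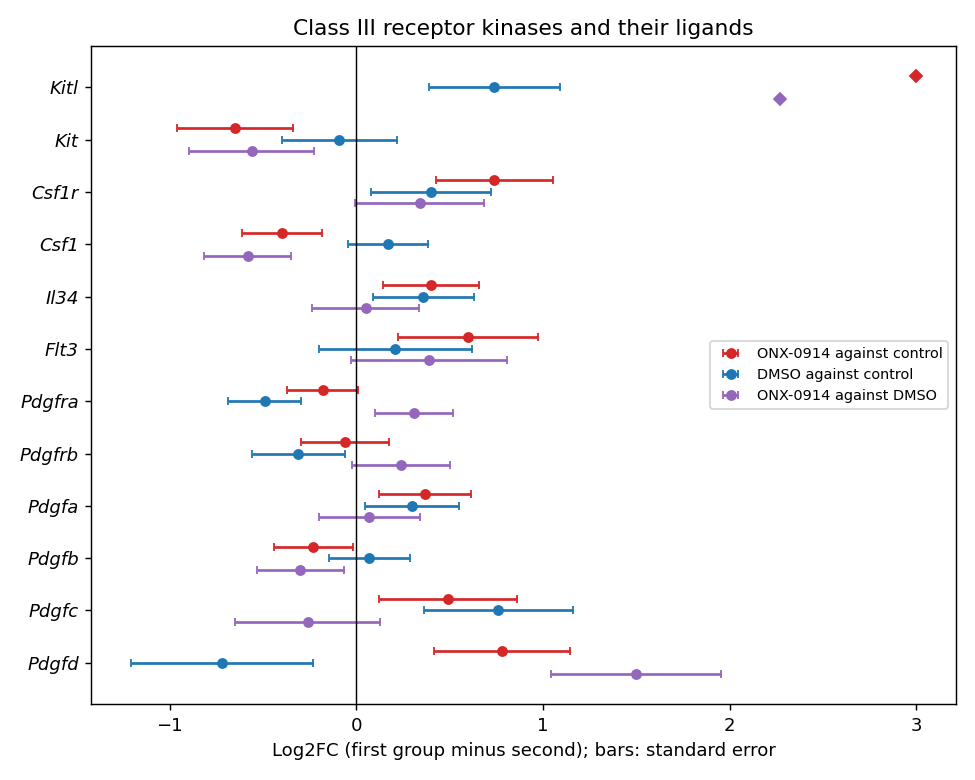
Log2FC of Kitl, Kit and 10 other class III receptor and ligand genes in the 3 comparisons of the edgeR model, with standard errors as bars. Kitl with ONX-0914, drawn as diamonds without an error because these values chose it, stands at 3.0 and 2.27, and the other genes lie between -0.72 and 1.5.

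Genes that carry the Kit signal inside the cell gave no call by edgeR. Of 44 genes for adaptors, kinases and phosphatases that act at the receptor, 41 were tested and 0 passed the FDR threshold in any comparison by edgeR, with 8 at an unadjusted p under 0.05 for ONX-0914 against control, 0 for DMSO against control and 7 for ONX-0914 against DMSO. Of all genes, 18.6%, 2.65% and 14.7% reached it. Both ONX-0914 libraries lay above all controls for 8 genes and below them for 8, 19.5% each, close to the 16.9% and 16.3% of all genes. The Log2FC ranged from -1.28 to 1.53 with a median of 0.14. Without ONX-0914 replicate 1 or 2, the list had 15 or 14 calls (36.6% or 34.1%), beside 51.2% or 19% of all genes.

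Grb10, an adaptor that binds activated receptor tyrosine kinases, had the lowest FDR of the list. It had 18.9, 16.4 and 21.5 CPM in control, 18 and 17.1 CPM in DMSO and 53.6 and 35.1 CPM in ONX-0914 libraries, with a Log2FC of 1.22 (SE 0.239, edgeR FDR 0.0796). Like Kitl, it was higher in ONX-0914 replicate 1 than in replicate 2 and in both above all controls. Of all genes tested, 16.9% had both ONX-0914 libraries above the controls. Prkca, a protein kinase C known to dampen Kit signalling, had 473 to 497 CPM in control libraries, 411 and 337 CPM with DMSO and 111 and 285 CPM in ONX-0914 libraries, with a Log2FC of -1.28 (edgeR FDR 0.144). DESeq2 called Grb10 and Prkca, and limma voom called 0 genes of this list. Of all 13152 genes tested, DESeq2 called 388 and limma voom 18 for ONX-0914 against control.

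The Src family kinase Lyn had the highest Log2FC of the list, 1.53 (edgeR FDR 0.176), from 2.20 to 3.54 CPM in control and 4.03 and 12 CPM in ONX-0914 libraries. Ptpn6, the phosphatase SHP-1 that limits Kit activity, had a Log2FC of 0.92 (edgeR FDR 0.282). It had 10.6 and 5.48 CPM in ONX-0914 libraries, 2.50 to 4.68 CPM in the controls and 5.63 and 5.0 CPM in DMSO. Its level in ONX-0914 replicate 2 thus lay between the DMSO libraries. The PI3-kinase subunit genes Pik3ca and Pik3cd had Log2FC values of 0.75 and 0.79 (edgeR FDR 0.119 and 0.144). Pik3ca and Pik3cd were named after their values were seen.

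Further down, all 28 genes of the ERK and PI3-kinase cascades were tested and 0 passed the FDR threshold in any comparison by edgeR, with 5, 1 and 3 at an unadjusted p under 0.05 for ONX-0914 against control, DMSO against control and ONX-0914 against DMSO (18.6%, 2.65% and 14.7% of all genes). Between ONX-0914 and control, the median Log2FC was 0.04, and 3 genes (10.7%) lay above and 5 (17.9%) below all controls, near the 16.9% and 16.3% of all genes. Map2k1, which encodes the ERK kinase MEK1, had 613, 743 and 726 CPM in control, 690 and 706 CPM in DMSO and 368 and 249 CPM in ONX-0914 libraries, with a Log2FC of -1.17 (SE 0.224, edgeR FDR 0.0756). Rps6ka1, the ERK-activated kinase RSK1, lay at 7.49 to 10.1 CPM in control and at 21.4 and 17.7 CPM in ONX-0914 libraries, with 1.18 (edgeR FDR 0.0901). In both ONX-0914 libraries, Map2k1 lay below and Rps6ka1 above all controls. Both ONX-0914 libraries lay above all controls for 16.9% of all genes and below them for 16.3%. An FDR under 0.1 for ONX-0914 against control was reached by 1.48% of all genes. DESeq2 called 2 genes of this list, Map2k1 among them, and limma voom called 0, beside 388 and 18 of all 13152 genes tested. Without ONX-0914 replicate 1 or 2, 16 or 7 of these genes were called (57.1% or 25%), beside 51.2% or 19% of all genes.

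**Figure D5:**
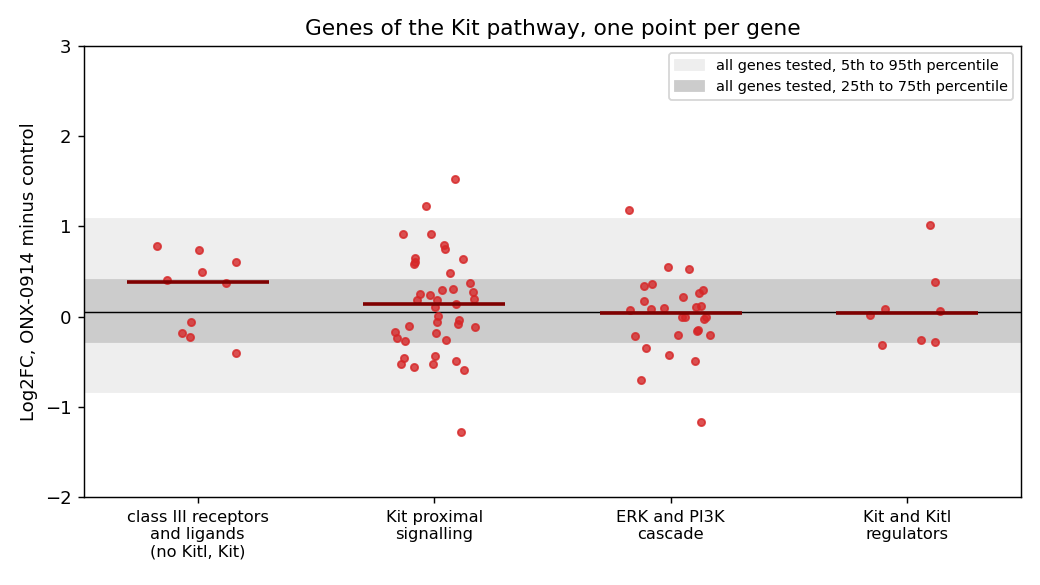
Log2FC of ONX-0914 against control for each tested gene of 4 lists around Kit (points) with the list median (bars), over the range of all genes tested (grey bands, 5th to 95th and 25th to 75th percentile). The medians are 0.38, 0.14, 0.04 and 0.04, beside 0.05 for all genes, and most points lie within the outer band.

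Genes known to regulate Kit or Kitl, or to release the soluble ligand, were also measured. Of 12, 8 were tested and 0 passed the FDR threshold in any comparison by edgeR, with 1, 0 and 1 at an unadjusted p under 0.05 for ONX-0914 against control, DMSO against control and ONX-0914 against DMSO (18.6%, 2.65% and 14.7% of all genes). The median Log2FC for ONX-0914 against control was 0.04, and 1 gene lay above and 2 below all controls, where 16.9% and 16.3% of all genes did. DESeq2 and limma voom called 0 genes of this list, and leaving out ONX-0914 replicate 1 or 2 gave 3 or 1 calls (33.3% or 11.1% of 9 then tested), beside 51.2% or 19% of all genes. Gata2, a transcription factor of Kit-dependent blood progenitors and mast cells, lay at 1.65 to 2.50 CPM in control and at 5.03 and 4.10 CPM in ONX-0914 libraries, with a Log2FC of 1.02 (edgeR FDR 0.228).

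Of the remaining regulators, Hif1a, the hypoxia factor, had 0.38, Lmo2, a partner of Gata factors, had -0.31 and Etv1, an ETS factor, had -0.28. Adam17 and Adam10, proteases of the cell surface of which the former releases soluble Kit ligand, had 0.06 and -0.26. Mitf, the melanocyte and mast cell factor, had 0.08. Tal1, which acts with Gata2 in blood progenitors, did not pass the filter, with 0 to 1.10 CPM in the control and DMSO libraries and 13.3 and 2.31 CPM in ONX-0914 replicates 1 and 2, and it was the regulator called without a filter on low counts. Adam17, Adam10, Mitf and Tal1 were named after their values were seen.

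The genes whose log2 CPM followed Kitl most closely over the 7 libraries were Ric8b (Pearson r 0.985), Gpx3 (0.985), Edil3 (0.984), Fhl1 (0.978) and Pdp1 (0.978). These values rest mostly on the high ONX-0914 libraries, and within the 5 libraries without the inhibitor they were 0.913, 0.743, 0.759, 0.759 and 0.997. Pdp1, a phosphatase that activates pyruvate dehydrogenase, had 49.6, 51.0 and 49.6 CPM in control, 67.6 and 60.3 CPM in DMSO and 210 and 98.9 CPM in ONX-0914 libraries. For Kit, the closest genes were Tmem121b (0.974), Kcnma1 (0.973), Josd1 (0.970), Ubn1 (0.970) and Il20rb (0.965). All 7 points share their library depth and scaling, and these values are descriptions.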

How the data were processed

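RNA-seq of hippocampus was analysed in 7 libraries (3 control, 2 DMSO, 2 ONX-0914). The authors deposited whole-number read counts, without normalization, for each library. The submitters' processing notes name Trimmomatic 0.39, STAR 2.7.3a, featureCounts 2.00 and GRCm39; the annotation release and the strand setting are not given in the sources used here. Of all reads listed, 89.6% to 91.4% were assigned to genes, and the rest stayed out of library sizes and tests. Symbols and exon lengths came from GENCODE M21, where 52083 of the 55416 identifiers were found, with 99.821% of the counts. Kitl and Kit each matched 1 identifier.

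The model was fitted with edgeR 4.0.16 under R 4.3.3 (filterByExpr over 3 groups, TMM, glmQLFit and glmQLFTest over all 7 libraries, prior count 0.125), with Benjamini–Hochberg adjustment over 13152 genes and 0.05 as the threshold. The coefficient of biological variation common to all genes was 0.249. The steps were tested on simulated data with the same spread in every group. That test does not cover a group as uneven as the ONX-0914 libraries. Pairs of libraries of a group differed by a chi-square per degree of freedom of 2.50 to 3.20 (76.9 between the ONX-0914 libraries), so none was a copy. Intervals of CPM are exact Poisson intervals.

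The genes and the gene lists were chosen with earlier results of these data known. Named were Kitl, Kit, the class III genes, the 4 genes of each other list with the largest absolute Log2FC for ONX-0914 against control, any list gene called, and the 5 genes most correlated with each member (log2 CPM, prior count 2). Of these, 2 genes are not reported. Alternatives were RLE and total-count scaling, no filter, at least 10 counts in every library, a prior count of 2, the compared groups alone, DESeq2 1.42.0, limma 3.58.1 voom, a replicate block, each library left out and, added after seeing the data, the earlier edgeR quasi-likelihood form.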

Additional observations from a re-analysis of the deposited data

How the results depend on the processing

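Kitl stayed higher with ONX-0914 under all 17 alternatives in both comparisons. Its high values in the ONX-0914 libraries chose it, so this describes the settings and is no further support. Leaving out single libraries gave a Log2FC of 2.42 to 3.43 against control and 1.68 to 2.68 against DMSO, and the 10 other alternatives gave 2.84 to 3.13 and 1.96 to 2.39. For DMSO against control, the Kitl Log2FC was 0.53 to 0.90 and never passed the threshold (edgeR FDR 0.167 to 1 over the libraries left out, 0.183 to 1 otherwise). Kit ranged from -1.26 to -0.25 for ONX-0914 against control, from -1.18 to -0.17 against DMSO and from -0.24 to 0.06 for DMSO against control, where its sign turned without control replicate 1. It passed the threshold only without ONX-0914 replicate 2. Deviations from the group means of same-numbered libraries correlated by -0.10 to 0.06. In a group of 2 libraries these deviations mirror each other, so this cannot exclude that the replicate numbers pair the libraries. With the replicate block, Kit was -0.66, -0.15 and -0.51 and Kitl 2.84, 0.88 and 1.96 for ONX-0914 against control, DMSO against control and ONX-0914 against DMSO, and the calls over all genes were 1, 0 and 0.

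Calls over all genes depended on the settings. For ONX-0914 against control, 15 genes became 578 without a filter, 3 with the compared groups alone, 388 with DESeq2 and 0 to 7023 without single libraries. For DMSO against control, 2 became 11 without a filter, 0 with at least 10 counts, 141 with the compared groups alone, 9 with DESeq2, 0 with limma voom and 0 to 146 without single libraries. For ONX-0914 against DMSO, 6 became 11 with RLE, 3 with total counts, 297 without a filter, 10 with at least 10 counts, 0 with the compared groups alone, 238 with DESeq2 and 0 to 6313 without single libraries. List calls for ONX-0914 against control, 0 by the main settings, became 2 for genes at the receptor and 2 for the ERK and PI3-kinase cascades both without a filter and with DESeq2, and 1 for the regulators without a filter. Without single libraries they were 0 to 2 (class III), 0 to 15 (at the receptor), 0 to 16 (cascades) and 0 to 3 (regulators). Without single libraries, signs turned for Csf1r (-0.01 to 1.2), Il34 (-0.04 to 0.69) and Lmo2 (-0.89 to 0.15), in each case without ONX-0914 replicate 2, and Pdgfrb turned to 0.08 with total counts and 0.05 with the replicate block. The median Log2FC of all genes for ONX-0914 against control was 0.05, and 0.19 with total counts. The cause of these changes was not tested. In the control libraries Kitl had 21 to 30 counts, which limits the precision of its folds.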
